A study of Homo sapiens with 40 samples.

Results

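The HRG-BT474R response at 12 h was measured in 4 of the 40 RNA libraries of the series, 2 from BT474R treated with HRG for 12 h and 2 from BT474R given the vehicle for 12 h, chosen by their sample labels, with all genes of the count table included. BT474R is a trastuzumab-resistant subline of BT474, a breast ductal carcinoma cell line that overexpresses HER2, and it is clone 5, raised from BT474 cells kept with trastuzumab, so all BT474R values come from a single clone. Cells of all groups were plated in wells and kept in medium of low serum before treatment, and then received 10 ng/mL HRG (heregulin) or water as the vehicle. The groups set beside these were BT474R after HRG or vehicle for 1 h and for 24 h, BT474R after 50 ng/mL EGF for 12 h, and the parental BT474 after HRG or vehicle for 12 h. Each group had 2 libraries, and treatments were done in duplicate on cells plated in wells. That the duplicates came from separate passages or days is not stated, so p-values measure only the spread between such duplicates.

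HRG, the product of the NRG1 gene, is a ligand of HER3 (ERBB3) and HER4 (ERBB4). HER3 has little kinase activity of its own and signals as a heterodimer with HER2 (ERBB2), which has no ligand. The dimers feed the PI3K/AKT and RAS/MAPK cascades, and MAPK activity in turn induces genes whose products dampen the cascade, such as the DUSP phosphatases and the Sprouty proteins. In breast epithelium these cascades meet the oestrogen and progesterone receptors of luminal cells.

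The 4 libraries held 22697167 and 30024539 counts (vehicle) and 27997024 and 28523735 counts (HRG). Levels are given as CPM, read counts divided by the library size after scaling by the TMM method, and 3 counts, taken as the detection limit, came to 0.10 to 0.13 CPM. Mitochondrial ribosomal and transfer RNA made up 2.58% to 2.80% of the counts in the 4 libraries, a share that does not include protein-coding mitochondrial transcripts. Replicates differed by more than counting noise, with a median chi-square between replicates of 0.914 for HRG and 0.887 for vehicle where counting noise alone gives 0.455. Of the 11 markers of breast luminal epithelium, all lay at 1 CPM or more, and their summed level was 16061 and 16193 CPM in vehicle and 16585 and 17275 CPM in HRG. ERBB2 is 1 of these markers and alone had means of 9276 CPM in vehicle and 9197 CPM in HRG. Among the 11, 1 was called higher, 1 (GATA3) was called lower and 9 were not called, with 5 above a log2 fold change of 0. The summed level of the 6 tested markers of basal and myoepithelial cells was 3.97 and 4.56 CPM in vehicle and 6.36 and 6.24 CPM in HRG, and of these TP63, a basal transcription factor, was higher with HRG (log2 fold change 1.07, adjusted p = 0.0262), near 1 CPM. The only leukocyte marker that was tested had a level between 1.65 and 2.04 CPM. The 3 tested fibroblast markers summed to 187 and 176 CPM in vehicle and 180 and 185 CPM in HRG, and 1 of them averaged 1 CPM or more. The 4 tested endothelial markers summed to 10.6 and 10.5 CPM in vehicle and 13.8 and 13.3 CPM in HRG. No marker of these last 3 cell types was called.

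HRG changed 1000 of the 24287 genes tested in BT474R at 12 h (4.12%), 579 upward (2.38%) and 421 downward (1.73%), at an adjusted p (Benjamini-Hochberg) under 0.05 in the quasi-likelihood test of edgeR. These are referred to as DEGs, and errors after ± are standard errors. Most changes were small, with a median log2 fold change of 0.40 among the DEGs that rose and -0.36 among those that fell. A log2 fold change of at least 1 in size was seen for 89 risen and 35 fallen DEGs, whereas 347 and 300 DEGs changed by less than 0.5. In all 1000 DEGs the HRG libraries lay on the same side of both vehicle libraries. Over all tested genes, 23.9% had both HRG libraries above both vehicle libraries and 25.5% had both below. A mean of 1 CPM or more over the 4 libraries was reached by 14675 of the tested genes and by 962 of the DEGs. The share called was therefore higher among such genes than over all genes. Most gene lists below consist mainly of such genes, while their shares are set against all genes tested. Additional rows of an already listed gene, marked by a numbered suffix, made up 37 of the DEGs. The counts rested on each of the 4 libraries: leaving out any 1 of them left between 282 and 406 risen and between 97 and 190 fallen DEGs. The HRG and vehicle replicates at 24 h differed most among the BT474R groups (median chi-square 3.20 for HRG and 1.84 for vehicle, against 1.14 for EGF at 24 h). All libraries at 24 h share the estimate of spread with those at 12 h, and without them 1271 genes rose and 1141 fell.

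**Figure D1:**
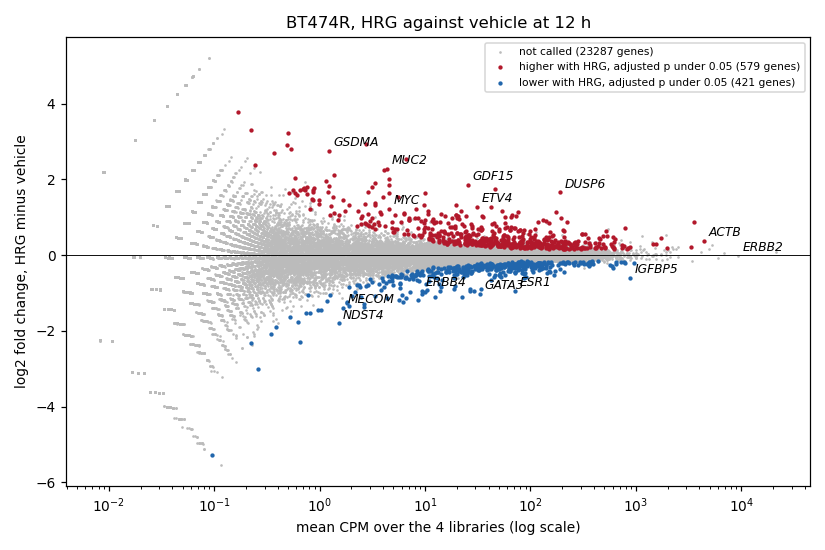
Log2 fold change of HRG over vehicle in BT474R at 12 h (vertical axis) against the mean CPM of the 4 libraries (horizontal axis, log scale), 1 point per gene tested. Red points are the 579 DEGs that rose and blue points the 421 that fell, and the 55 genes with no count in these 4 libraries are not drawn. ERBB2 lies at the zero line with the highest level among the labelled genes, and most DEGs lie within 1 log2 unit of that line.

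Of the DEGs whose 4 libraries averaged 1 CPM or more, the 12 largest rises ran from a log2 fold change of 1.76 to 2.75. GSDMA, a gasdermin of skin epithelium, was at 0.216 and 0.397 CPM in vehicle and 2.43 and 1.88 CPM in HRG (log2 fold change 2.75 ± 0.36, adjusted p = 4.45e-05). MUC2, a gel-forming mucin of intestinal goblet cells, was at 1.34 and 1.62 CPM in vehicle and 8.36 and 6.21 CPM in HRG (log2 fold change 2.28 ± 0.28, adjusted p = 2.07e-05), and its 2 additional rows in the table, among which reads may be split, had log2 fold changes of 2.55 and 2.92. KRT16, a keratin of activated and stratified epithelium, went from 1.21 and 1.59 CPM to 6.32 and 7.09 CPM (log2 fold change 2.24 ± 0.22, adjusted p = 1.18e-06). In all of these the lowest HRG library lay above the highest vehicle library, as the choice of genes requires, and by a wide margin. ACTG2, the enteric smooth muscle actin, stood at 0.647 and 0.397 CPM in vehicle against 2.25 and 2.20 CPM in HRG (log2 fold change 2.12 ± 0.34, adjusted p = 0.000471). GDF15, a secreted stress-induced cytokine of the TGF-beta family, had 8.15 and 13.6 CPM in vehicle and 31.1 and 49.1 CPM in HRG (log2 fold change 1.85 ± 0.35, adjusted p = 0.00257), with replicates that differed within each group. The vehicle mean of GDF15 at 1 h was 88.1 CPM, above its mean of 40.1 CPM with HRG at 12 h. AQP3, a channel for water and glycerol, had the highest level of this group, 19.3 and 22.5 CPM in vehicle and 74.2 and 67.6 CPM in HRG (log2 fold change 1.76 ± 0.16, adjusted p = 5.73e-07). The other genes among the 12 largest rises were the kinase gene TNIK, with a log2 fold change of 2.00, TENM4 (1.95), the peptidylarginine deiminase gene PADI1 (1.90), the adhesion molecule gene L1CAM (1.85), the cancer-testis antigen gene MAGEC1 (1.81) and ARHGDIB (1.80), which encodes an inhibitor of small GTPases. The calls of TENM4, PADI1 and GDF15 were lost when single libraries were left out, with adjusted p-values of up to 0.0771, 0.0529 and 0.0658, respectively.

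The 12 largest falls, by the same rule, ran from -1.19 to -1.80 on the log2 scale, mostly in genes of low level. MECOM, which encodes the zinc finger factor EVI1, was at 2.50 and 2.38 CPM in vehicle and 0.965 and 0.887 CPM in HRG (log2 fold change -1.39 ± 0.24, adjusted p = 0.00115). MAF, a basic leucine zipper factor, was at 2.63 and 2.48 CPM in vehicle and 1.11 and 0.993 CPM in HRG (log2 fold change -1.28 ± 0.19, adjusted p = 0.000235). IGFBP3, which binds insulin-like growth factors, fell from 4.14 and 3.41 CPM to 1.501 and 1.52 CPM (log2 fold change -1.30 ± 0.18, adjusted p = 5.79e-05). In these transcription factor and binding protein genes, each HRG library had less than the lower vehicle library, as the choice of genes requires. GPER1, a membrane receptor that responds to oestrogen, was at 8.84 and 8.37 CPM in vehicle and 3.25 and 4.08 CPM in HRG (log2 fold change -1.23 ± 0.14, adjusted p = 8.56e-06). CXXC4, an inhibitor of WNT signaling, had the highest level among the 12 largest falls, 11.7 and 12.2 CPM in vehicle and 5.57 and 4.89 CPM in HRG (log2 fold change -1.19 ± 0.17, adjusted p = 0.000136). The remaining falls were NDST4, a heparan sulfate sulfotransferase gene, with a log2 fold change of -1.80, the cadherin-type genes FAT4 (-1.45) and PCDH11X (-1.34), the beta-glucan receptor gene CLEC7A (-1.38), CEP126 (-1.23), EVA1A (-1.21) and the endocytosis gene STON1 (-1.19). NDST4, FAT4, CLEC7A, CEP126 and EVA1A were not DEGs without at least 1 of the libraries, with adjusted p-values of up to 0.215, 0.243, 0.0793, 0.0550 and 0.424, respectively.

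**Figure D2:**
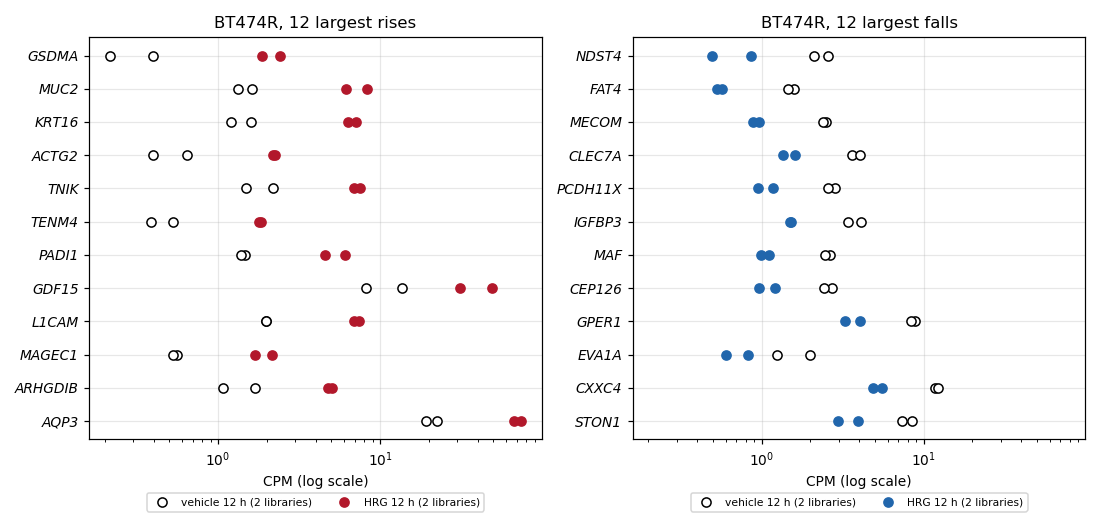
CPM on a log axis in each of the 4 BT474R libraries at 12 h for the 12 DEGs with the largest rises (left, HRG in red) and the 12 with the largest falls (right, HRG in blue), among DEGs that averaged 1 CPM or more, with vehicle as open circles. The HRG and vehicle libraries do not overlap for any of the 24 genes, as the choice of genes requires, and the vehicle levels range from 0.216 CPM for GSDMA to 22.5 CPM for AQP3.

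The 150 bases before the transcription start are shown for the 3 most risen and the 3 most fallen genes that the promoter table holds, to give the sequence next to the starts of genes at the extremes of the response. The sequences are from RefSeq on GRCh38.p14, written 5′ to 3′ on the strand of the gene, at chr17:39962854-39963003 (GSDMA, plus strand), chr11:1074724-1074873 (MUC2, plus), chr2:73892858-73893007 (ACTG2, plus), chr4:115113621-115113770 (NDST4, minus), chr3:169663713-169663862 (MECOM, minus, the first listed of 3 starts) and chrX:91779225-91779374 (PCDH11X, plus, the first listed of 2 starts). Capitals mark matches to any of 5 motifs searched on both strands: the AP-1 motif TGACTCA, the E-box CACGTG, the CArG box bound by serum response factor, the TATA box TATAAA and the ETS motif CCGGAAG, of which the last 3 were chosen after the values were seen.
GSDMA: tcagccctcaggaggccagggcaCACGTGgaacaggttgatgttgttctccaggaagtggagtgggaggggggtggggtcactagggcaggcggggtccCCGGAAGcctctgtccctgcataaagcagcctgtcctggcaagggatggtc
MUC2: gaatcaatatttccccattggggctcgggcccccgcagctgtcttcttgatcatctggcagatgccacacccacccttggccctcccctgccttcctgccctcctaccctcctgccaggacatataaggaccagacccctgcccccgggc
ACTG2: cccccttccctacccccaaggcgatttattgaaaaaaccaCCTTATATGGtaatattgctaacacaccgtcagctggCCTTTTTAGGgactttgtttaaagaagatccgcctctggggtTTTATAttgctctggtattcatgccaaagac
NDST4: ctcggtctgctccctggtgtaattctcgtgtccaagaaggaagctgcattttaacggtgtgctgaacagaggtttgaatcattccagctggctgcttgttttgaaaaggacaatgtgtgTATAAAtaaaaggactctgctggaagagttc
MECOM: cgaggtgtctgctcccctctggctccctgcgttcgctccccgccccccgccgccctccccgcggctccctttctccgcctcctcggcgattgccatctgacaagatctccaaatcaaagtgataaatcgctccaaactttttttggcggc
PCDH11X: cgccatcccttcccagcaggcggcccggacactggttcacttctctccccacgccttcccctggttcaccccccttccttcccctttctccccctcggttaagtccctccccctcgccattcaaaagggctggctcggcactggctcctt
ACTG2 had 2 CArG boxes, starting 110 and 73 bases before the start, and a TATA box match on the opposite strand 31 bases before it. GSDMA had an E-box 127 bases and an ETS motif 51 bases before the start, and NDST4 had a TATA box 31 bases before the start. No motif was found in the windows of MUC2, MECOM and PCDH11X, and no AP-1 motif in any of the 6. Of the 34943 windows of this length in the table, 0.773% held a CArG box, 4.55% an E-box, 6.81% the ETS motif, 6.72% the TATA box and 2.90% the AP-1 motif. The matches are letters in a window and were not tested for binding.

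Among the most abundant DEGs, the rises were led by genes of the actin cytoskeleton. ACTB, cytoplasmic beta-actin, rose from 3815 and 3924 CPM to 5008 and 5058 CPM (log2 fold change 0.38 ± 0.039, adjusted p = 2.24e-06). FLNA, which crosslinks actin filaments, rose from 1492 and 1474 CPM to 2055 and 1960.3 CPM (log2 fold change 0.44 ± 0.043, adjusted p = 1.18e-06). H19, an imprinted long noncoding RNA, had 2223 and 2771 CPM in vehicle and 4214 and 4929.7 CPM in HRG (log2 fold change 0.87 ± 0.13, adjusted p = 0.000296), and its additional row had a log2 fold change of 0.99. For all of these genes the change was larger than the gap between replicates. ACTG1, cytoplasmic gamma-actin, changed by 0.20 on the log2 scale and RNR1, the mitochondrial 12S ribosomal RNA in NCBI's naming, by 0.22. Among the 5 most abundant DEGs that fell, IGFBP5 changed most, from 1019 and 1116 CPM to 718 and 688 CPM (log2 fold change -0.60 ± 0.11, adjusted p = 0.00121). The endoplasmic reticulum chaperone genes HSPA5 (log2 fold change -0.19) and CALR (-0.21), the sphingolipid regulator gene ORMDL3 (-0.21) and MAGED2 (-0.19) also fell. These small changes and those of ACTG1 and RNR1 lost their calls when single libraries were left out, with adjusted p-values of up to 0.312, 0.149, 0.0975, 0.224, 0.102 and 0.267 for HSPA5, CALR, ORMDL3, MAGED2, ACTG1 and RNR1.

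Of the ERBB receptor genes, ERBB4 fell and the other 3 were not called. ERBB4, which binds HRG directly, was at 12.2 and 12.2 CPM in vehicle and 6.47 and 6.17 CPM in HRG, a fall to 0.518 of the vehicle level (log2 fold change -0.95 ± 0.11, adjusted p = 1.52e-05). ERBB2 was at 9396 and 9156 CPM in vehicle and 9054 and 9339.5 CPM in HRG (log2 fold change -0.012 ± 0.045, adjusted p = 0.933). ERBB3, the other receptor of HRG, was at 344 and 354 CPM in vehicle and 327 and 321 CPM in HRG (log2 fold change -0.11 ± 0.059, adjusted p = 0.397). EGFR had 679.6 and 794 CPM in vehicle and 722 and 794 CPM in HRG (log2 fold change 0.041 ± 0.094, adjusted p = 0.888), and its groups overlapped, as those of ERBB2 did. Of the 9 ERBB ligand genes tested, AREG (amphiregulin, a ligand of EGFR) rose, from 0.345 and 0.562 CPM to 1.29 and 1.28 CPM (log2 fold change 1.45 ± 0.37, adjusted p = 0.0249), and was not called without at least 1 library (adjusted p up to 0.223).

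Feedback regulators of receptor and MAPK signaling rose more often than they fell. Of the 34 tested, 7 rose (DUSP6, SPRY4, PHLDA2, IER3, ERRFI1, SPRED2 and DUSP4), 2 fell (SOCS2 and LRIG2) and 25 were not called, a share of 26.5% called against 4.12% over all genes. DUSP6, the phosphatase of ERK, was at 91.0 and 93.2 CPM in vehicle and 279 and 300.1 CPM in HRG (log2 fold change 1.65 ± 0.10, adjusted p = 4.16e-09). SPRY4, a Sprouty inhibitor of RAS/MAPK signaling, was at 49.3 and 45.8 CPM in vehicle and 104 and 105 CPM in HRG (log2 fold change 1.14 ± 0.10, adjusted p = 2.06e-07). No HRG library came near the vehicle levels in either gene. PHLDA2, which binds phosphoinositides, was at 12.8 and 12.5 CPM in vehicle and 24.6 and 28.5 CPM in HRG (log2 fold change 1.07 ± 0.14, adjusted p = 3.87e-05). SOCS2, an inhibitor of cytokine receptor signaling, fell from 8.71 and 9.26 CPM to 4.15 and 4.08 CPM (log2 fold change -1.13 ± 0.14, adjusted p = 1.68e-05). LRIG2 fell less (log2 fold change -0.24) and was not called without at least 1 library (adjusted p up to 0.485), so that 1 member had fallen with any library left out.

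Immediate early and ETS transcription factors were also among the DEGs. Of 30 immediate early factors, 4 rose (KLF2, MYC, MAFF and IER5), 1 fell (BTG2) and 25 were not called (16.7% called). MYC was at 2.46 and 3.01 CPM in vehicle and 6.40 and 6.42 CPM in HRG (log2 fold change 1.21 ± 0.19, adjusted p = 0.000414), a low level in all 4 libraries. KLF2, a Kruppel-like factor, was at 16.7 and 15.5 CPM in vehicle and 27.9 and 28.8 CPM in HRG (log2 fold change 0.82 ± 0.10, adjusted p = 2.35e-05). The vehicle means at 1 h were 8.10 CPM for MYC, 48.6 CPM for KLF2 and 20.8 CPM for MAFF. These lay above the means with HRG at 12 h, 6.41, 28.4 and 15.1 CPM. At 24 h the vehicle means were lower, at 1.56, 12.5 and 9.33 CPM. BTG2, an antiproliferative coregulator, fell from 45.7 and 48.3 CPM to 33.1 and 33.9 CPM (log2 fold change -0.49 ± 0.074, adjusted p = 0.000211), and MAFF, a small MAF factor, had a log2 fold change of 0.90, with an adjusted p of up to 0.0504 when a library was left out. Of the 13 ETS factors and targets tested, 5 rose (ETV1, ETV4, ETV5, ELK3 and ETS2), EHF fell and 7 were not called (46.2% called). The PEA3 subfamily moved together. ETV1 was at 2.03 and 2.08 CPM in vehicle and 5.43 and 6.49 CPM in HRG (log2 fold change 1.53 ± 0.18, adjusted p = 1.47e-05). ETV4 was at 18.0 and 18.7 CPM in vehicle and 41.6 and 47.2 CPM in HRG (log2 fold change 1.27 ± 0.18, adjusted p = 0.000123). ETV5 was at 42.0 and 44.4 CPM in vehicle and 69.0 and 72.4 CPM in HRG (log2 fold change 0.71 ± 0.089, adjusted p = 2.49e-05). In each of them the replicates lay close to each other compared with the gap between the groups. EHF, an ETS factor of differentiated epithelium, changed by -0.21 on the log2 scale, and was not called without at least 1 library (adjusted p up to 0.191).

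In the PI3K and FOXO list, 3 of 38 genes rose, 2 fell and 33 were not called (13.2% called). IRS2, an adaptor of insulin and IGF1 receptors, rose from 6.60 and 7.31 CPM to 11.5 and 13.8 CPM (log2 fold change 0.86 ± 0.12, adjusted p = 5.85e-05), and IRS1 rose from 12.3 and 12.6 CPM to 18.3 and 18.8 CPM (log2 fold change 0.58 ± 0.10, adjusted p = 0.000909). The vehicle mean of IRS2 at 1 h was 25.9 CPM, above its mean of 12.6 CPM with HRG at 12 h. TRIB3, an inhibitor of AKT, had a log2 fold change of 0.36. SESN3, a target of FOXO factors, fell from 5.65 and 5.09 CPM to 3.50 and 2.94 CPM (log2 fold change -0.73 ± 0.16, adjusted p = 0.00756), and PIK3R1, the regulatory subunit p85-alpha of PI3K, changed by -0.31. TRIB3, SESN3 and PIK3R1 were not called without at least 1 library, with adjusted p-values of up to 0.291, 0.185 and 0.336.

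Genes of DNA replication and mitosis shifted upward by small amounts against the vehicle of the same time. Of the 43 DNA replication genes, 15 rose and 0 fell (34.9% called), with 30 and 0 at an unadjusted p under 0.05 in edgeR and 18 and 0 called by DESeq2. All 43 had a log2 fold change above 0, and the median was 0.23 against -0.016 over all genes tested. The 15 included the helicase subunits MCM2, MCM5, MCM6 and MCM7, the loading factors CDC6, ORC1 and ORC6, and CDC45, and their log2 fold changes lay between 0.23 and 0.54. CHAF1A, a histone chaperone of replicating chromatin, was at 48.8 and 48.4 CPM in vehicle and 60.4 and 58.4 CPM in HRG (log2 fold change 0.29 ± 0.056, adjusted p = 0.00301). DSCC1, which loads the sliding clamp, was at 9.48 and 9.59 CPM in vehicle and 13.6 and 14.1 CPM in HRG (log2 fold change 0.54 ± 0.11, adjusted p = 0.00639), and POLA2, a subunit of the primase complex, had a log2 fold change of 0.26. Of the 38 mitosis genes, 11 rose and 0 fell (28.9% called), with 27 and 0 at an unadjusted p under 0.05 in edgeR and 12 and 0 called by DESeq2, and the median log2 fold change was 0.21 with all 38 above 0. MKI67, the proliferation marker Ki-67, was at 163 and 159 CPM in vehicle and 189.7 and 213 CPM in HRG (log2 fold change 0.32 ± 0.053, adjusted p = 0.000591). TPX2, a spindle assembly factor, was at 134 and 136 CPM in vehicle and 161 and 164 CPM in HRG (log2 fold change 0.27 ± 0.050, adjusted p = 0.00213), and UBE2C, a ubiquitin-conjugating enzyme of mitotic exit, had a log2 fold change of 0.37. The vehicle means of MKI67, TPX2 and UBE2C were lower at 12 h than at 1 h or 24 h. For MKI67 they were 290, 161 and 287 CPM at 1, 12 and 24 h, with HRG at 12 h at 202 CPM. TPX2 had 250, 135 and 208 CPM, with HRG at 162 CPM. UBE2C had 54.6, 28.8 and 55.8 CPM, with HRG at 37.2 CPM. In the replication genes CHAF1A, DSCC1 and POLA2, the mean with HRG at 12 h lay above the vehicle mean of each time. The counts of called genes depended on single libraries: 1 replication gene was called without HRG replicate 1 or without vehicle replicate 1 and 2 without HRG replicate 2, and the mitosis count was 4 without HRG replicate 2 and 7 without vehicle replicate 1. Without the 24 h libraries, 26 replication and 21 mitosis genes rose. CHAF1A, DSCC1, POLA2 and UBE2C were each lost without at least 1 library, at adjusted p-values of up to 0.0515, 0.0555, 0.0980 and 0.0629. In bulk RNA, more cells in cycle and more RNA per cell cannot be told apart.

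Of the 23 genes for G1 cyclins and CDK inhibitors, 2 rose, 1 fell and 20 were not called (13% called). At an unadjusted p under 0.05 in edgeR, 8 were higher and 1 lower, and DESeq2 called 2 higher and 1 lower. A log2 fold change above 0 was seen for 20 of the 23, with a median of 0.15. E2F1, the transcription factor released at the G1/S transition, had a log2 fold change of 0.34 and the kinase CDK6 of 0.47. RBL2, a pocket protein of quiescent cells, fell from 84.0 and 81.3 CPM to 67.7 and 66.5 CPM (log2 fold change -0.30 ± 0.052, adjusted p = 0.00105). CCND1, cyclin D1, was at 268 and 315 CPM in vehicle and 353 and 388 CPM in HRG (log2 fold change 0.35 ± 0.12, adjusted p = 0.116) and was not called, although it was with no filter on low counts, with the replicate block, in the fit of 40 libraries and without the 24 h libraries. E2F1 and CDK6 reached adjusted p-values of up to 0.140 and 0.137 without 1 library. Ribosome biogenesis genes, which MYC is known to induce, were called at a rate no higher than that over all genes tested (1 of 41, 2.44%). The called gene was the RNA helicase DDX21 (log2 fold change 0.27 ± 0.048, adjusted p = 0.00112). At an unadjusted p under 0.05, where 7.88% of all genes tested were higher and 7.95% lower, 11 of the 41 were higher and 0 lower, and DESeq2 called 2.

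**Figure D3:**
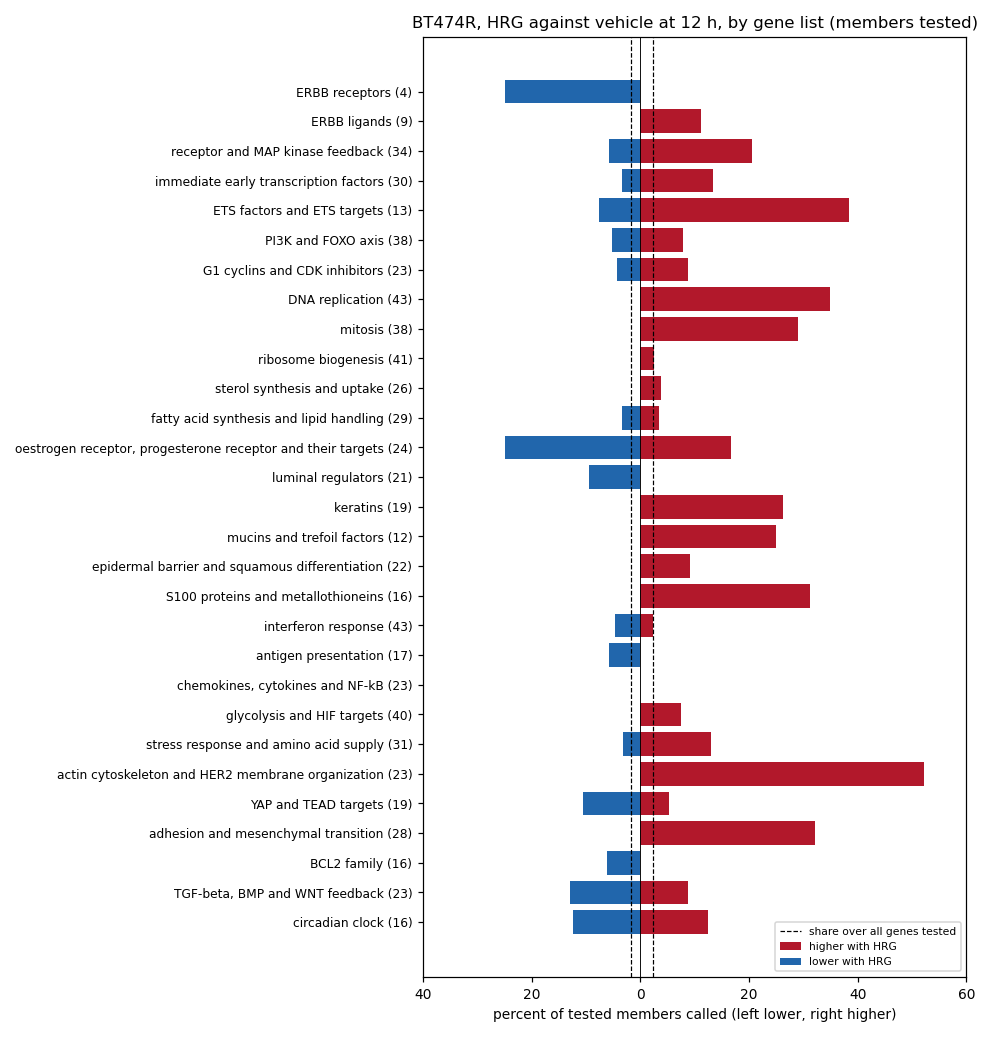
Share of the tested members of each of 29 gene lists that rose (red, to the right) or fell (blue, to the left) with HRG in BT474R at 12 h, as a percent of the members tested, with the number tested in brackets. Dashed lines mark the shares over all genes tested, 2.38% upward and 1.73% downward. The actin list stands highest to the right, at 12 of 23 genes.

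The DEGs of the actin cytoskeleton and of adhesion all rose. Of the 23 genes tested for the actin cytoskeleton and HER2 membrane organization, 12 rose and 0 fell (52.2% called, with 13 and 0 at an unadjusted p under 0.05 in edgeR and 12 and 0 called by DESeq2). These were ACTB, ACTG1, ACTN1, ACTN4, VAV2, EZR, PFN1, FLNA, MYH9, TPM1, TPM4 and CDC37, with log2 fold changes between 0.17 and 0.44. TPM4, a tropomyosin of stress fibres, was at 237 and 247 CPM in vehicle and 301 and 306 CPM in HRG (log2 fold change 0.33 ± 0.045, adjusted p = 8.18e-05). The count was 6 without HRG replicate 2 and 6 without vehicle replicate 1. Of 28 adhesion and mesenchymal transition genes, 9 rose and 0 fell in edgeR (32.1% called), with 10 and 3 at an unadjusted p under 0.05 and 8 and 1 called by DESeq2. The risen genes included the integrins ITGA3, ITGA5, ITGB1, ITGB4 and ITGB6, the laminin chain LAMB3, the matrix glycoprotein TNC and the cadherin CDH5. TNC was at 106 and 108 CPM in vehicle and 198 and 187 CPM in HRG (log2 fold change 0.85 ± 0.058, adjusted p = 1.05e-08). ITGB4, the beta chain of the laminin-binding hemidesmosome integrin, was at 159.6 and 154 CPM in vehicle and 282 and 297 CPM in HRG (log2 fold change 0.88 ± 0.061, adjusted p = 1.05e-08). TNC and ITGB4 were higher in each HRG library and kept their calls with any library left out, while the count of risen adhesion genes was 5 without HRG replicate 1 and 5 without vehicle replicate 1.

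All DEGs of the keratin, mucin and S100 lists rose, and most members of these lists were not called. Of 19 keratin genes, 5 rose (KRT15, KRT16, KRT17, KRT18 and KRT80) and 14 were not called (26.3% called). KRT15, a keratin of basal layer cells, was at 94.1 and 102 CPM in vehicle and 177 and 189 CPM in HRG (log2 fold change 0.89 ± 0.11, adjusted p = 3.17e-05), and KRT80 was at 69.2 and 68.3 CPM in vehicle and 98.5 and 97.0 CPM in HRG (log2 fold change 0.51 ± 0.061, adjusted p = 1.68e-05). Of 12 mucin and trefoil genes, 3 rose (25.0% called). Besides MUC2 these were the gastric mucins MUC5AC, at 33.2 and 32.9 CPM in vehicle and 75.4 and 73.8 CPM in HRG (log2 fold change 1.17 ± 0.23, adjusted p = 0.00322), and MUC6 (log2 fold change 0.63 ± 0.17, adjusted p = 0.0407). MUC6 was not called by DESeq2 or without any 1 of the 4 libraries, where its log2 fold change lay between 0.59 and 0.71. MUC6 has 3 additional rows in the table, MUC5AC, PADI1 and PHLDA2 have 1 each, and summing all such rows into their genes changed no call of the named genes. Of the 22 genes of epidermal barrier and squamous differentiation, 2 rose, GSDMA and PPL (log2 fold change 0.34 ± 0.063, adjusted p = 0.00171), the desmosome and cornified envelope protein periplakin (9.09% called). S100A9, a subunit of calprotectin, was at 3.62 and 4.27 CPM in vehicle and 8.93 and 8.37 CPM in HRG (log2 fold change 1.12 ± 0.13, adjusted p = 1.47e-05). S100A10, the partner of annexin A2, was at 38.2 and 41.0 CPM in vehicle and 62.0 and 59.96 CPM in HRG (log2 fold change 0.62 ± 0.069, adjusted p = 6.21e-06), and S100A14 had a log2 fold change of 0.33. S100A11 and S100A16 also rose, which made 5 of the 16 S100 and metallothionein genes (31.2% called).

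The steroid receptor genes ESR1 and PGR and the luminal regulator gene GATA3 fell. ESR1, oestrogen receptor alpha, was at 99.1 and 88.4 CPM in vehicle and 48.1 and 49.4 CPM in HRG, 0.521 of the vehicle level (log2 fold change -0.94 ± 0.10, adjusted p = 2.75e-06). PGR, the progesterone receptor, was at 28.7 and 26.1 CPM in vehicle and 19.0 and 17.4 CPM in HRG (log2 fold change -0.59 ± 0.12, adjusted p = 0.00433). For both receptors the gap between groups was wider than between replicates, although PGR was not called without at least 1 library (adjusted p up to 0.131). Targets of the receptors went both ways. In the oestrogen and progesterone list, 6 of 24 genes fell and 4 rose (41.7% called). The oestrogen-induced gene GREB1 (log2 fold change -0.34 ± 0.057, adjusted p = 0.000696), the prolactin receptor gene PRLR, IGFBP5 and the orphan receptor gene ESRRG fell with ESR1 and PGR, whereas AGR2 (log2 fold change 0.56 ± 0.072, adjusted p = 3.17e-05), a disulfide isomerase of secretory cells, rose along with IGFBP4 (0.32), the receptor tyrosine kinase gene RET (0.31) and RARA. The number of fallen members was 3 without HRG replicate 2 and 2 without vehicle replicate 1. RET and GREB1 reached 0.0572 and 0.0507 without 1 library. APOD, a lipocalin, fell (-0.34, adjusted p up to 0.278 without 1 library), and the transporter gene SLC45A3 rose from 9.05 and 11.4 CPM to 18.7 and 23.1 CPM (log2 fold change 1.02 ± 0.16, adjusted p = 0.000319), as did ALDH1A3, an enzyme of retinoic acid synthesis (log2 fold change 0.73 ± 0.10, adjusted p = 6.56e-05). Of 21 luminal regulators, GATA3 and MECOM fell and 19 were not called (9.52% called). GATA3, the master regulator of luminal differentiation, was at 48.3 and 41.1 CPM in vehicle and 22.9 and 20.9 CPM in HRG, 0.491 of the vehicle level (log2 fold change -1.03 ± 0.13, adjusted p = 3.87e-05).

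Few genes of lipid and glucose metabolism were called. In the sterol list, 1 of 26 genes was called (3.85%), FDPS, farnesyl diphosphate synthase (log2 fold change 0.55 ± 0.11, adjusted p = 0.00422), with 23 of 26 above 0, 10 higher and 0 lower at an unadjusted p under 0.05 and 2 called by DESeq2. Fatty acid synthase, FASN, had 4755 and 4868 CPM in vehicle and 5508 and 6134 CPM in HRG (log2 fold change 0.27 ± 0.10, adjusted p = 0.132), so both HRG libraries lay above both vehicle libraries in FASN without a call. FASN was called with no filter on low counts, in the fit of 40 libraries and without the 24 h libraries. The sterol and lipid regulators SREBF1 (log2 fold change 0.055 ± 0.052, adjusted p = 0.682), SREBF2 (log2 fold change 0.057 ± 0.053, adjusted p = 0.679) and NR1H3 (log2 fold change -0.0086 ± 0.16, adjusted p = 0.993) were not called either. LPIN1, a phosphatidate phosphatase, had a log2 fold change of 0.40 and ACACB, the mitochondrial acetyl-CoA carboxylase, of -0.41, both called, in a list of 29 fatty acid genes (6.90% called). FDPS, LPIN1 and ACACB were not called without at least 1 library (adjusted p up to 0.121, 0.302 and 0.254). In the glycolysis and HIF list, 3 of 40 rose and 37 were not called (7.5% called): EPAS1, which encodes HIF-2 alpha (log2 fold change 0.48 ± 0.067, adjusted p = 0.000103), PDK4, the kinase that inhibits pyruvate dehydrogenase (log2 fold change 0.98 ± 0.14, adjusted p = 0.000151), and HIF1A (log2 fold change 0.20 ± 0.049, adjusted p = 0.0219), with an adjusted p of up to 0.185 for HIF1A without 1 library. At an unadjusted p under 0.05, 12 of the 40 were higher and 1 lower, and DESeq2 called 6, all higher. In the stress and amino acid list, 4 of 31 rose and 1 fell (16.1% called), and besides GDF15, TRIB3 and HSPA5 these were the cationic amino acid transporter SLC7A1 (log2 fold change 0.34 ± 0.065, adjusted p = 0.00279) and glutamine synthetase, GLUL (0.23, adjusted p up to 0.0865 without 1 library).

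Interferon and inflammatory genes showed few calls. Of 43 interferon response genes, GBP2 rose (0.34) and STAT2 (-0.36) and DTX3L (-0.40) fell (6.98% called), and each lost its call without at least 1 library, with adjusted p-values of up to 0.244, 0.305 and 0.204, respectively. IRF1 was at 1.42 and 2.25 CPM in vehicle and 2.00 and 1.91 CPM in HRG (log2 fold change 0.060 ± 0.31, adjusted p = 0.965). Among 23 chemokine, cytokine and NF-kB genes, 0 were called by edgeR, 5 had an unadjusted p under 0.05 and 1 was called by DESeq2. Of 17 antigen presentation genes, CALR was called, as given above (5.88%).

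Further lists held DEGs in both directions. In TGF-beta, BMP and WNT feedback, 2 of 23 rose and 3 fell (21.7% called). LEF1, a nuclear effector of WNT signaling, fell from 3.28 and 3.41 CPM to 1.501 and 1.596 CPM (log2 fold change -1.11 ± 0.19, adjusted p = 0.000740), the decoy receptor BAMBI changed by -0.36 and the WNT receptor ubiquitin ligase RNF43 by -0.17, while NKD1 rose (log2 fold change 0.84 ± 0.14, adjusted p = 0.000556) and ID1 had a log2 fold change of 0.76. BAMBI, RNF43 and ID1 reached 0.0616, 0.301 and 0.0923 without 1 library. In the circadian clock list, 2 of 16 rose and 2 fell (25.0% called). NPAS2, a paralog of CLOCK, was at 15.4 and 16.6 CPM in vehicle and 31.4 and 34.0 CPM in HRG (log2 fold change 1.03 ± 0.13, adjusted p = 2.43e-05). BHLHE40 had a log2 fold change of 0.67, and the repressors CRY2 (-0.44) and NR1D2 (-0.36) fell, and these genes had adjusted p-values of up to 0.395, 0.220 and 0.300 without 1 library. Of 19 YAP and TEAD targets, ASAP1 rose (0.19) and IGFBP3 and ARHGEF17 (-0.19) fell (15.8% called). Of the 16 BCL2 family genes, BMF, a BH3-only member, was called (-0.25, 6.25% called). ASAP1, ARHGEF17 and BMF reached 0.126, 0.473 and 0.346 without 1 library.

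Few of the DEGs at 12 h were called after 1 h of HRG. At 1 h, 41 genes were called (0.169% of those tested), and 13 of the 1000 DEGs at 12 h were among them, all in the same direction, 1.30% of the DEGs at 12 h and 31.7% of those at 1 h. DUSP6 was among these, with a log2 fold change of 0.75 ± 0.10 at 1 h (adjusted p = 0.000386), as were SPRY4 (0.78), IRS2 (0.72) and MAFF (0.76). The change from 1 h to 12 h was tested as a difference between the effects, each against its own vehicle, and 241 genes differed (0.992%), 140 toward a higher effect at 12 h and the rest toward a lower one. KRT16 had an effect of 0.19 at 1 h and 2.24 at 12 h (difference 2.05 ± 0.35, adjusted p = 0.00286). CYP1A1, the aryl hydrocarbon receptor target that oxidizes polycyclic hydrocarbons, went from -0.47 to 1.52 (difference 1.99 ± 0.32, adjusted p = 0.00214). Its level at 12 h was 2.63 and 3.11 CPM in vehicle and 8.93 and 7.70 CPM in HRG. At 1 h its mean level was 44.4 CPM in vehicle and 31.9 CPM in HRG, so HRG at 12 h stayed below both groups at 1 h. ARHGDIB (difference 1.77 ± 0.27, adjusted p = 0.00124), ADGRF4 (difference 1.78 ± 0.38, adjusted p = 0.0184) and L1CAM (difference 1.501 ± 0.32, adjusted p = 0.0191) completed the largest upward differences. The largest downward differences were in CLEC7A (-1.53), CEP126 (-1.46), PCDH11X (-1.45), the glutamate receptor gene GRIK2 (-1.42) and LEF1 (-1.40). Among these 10 genes, the difference between times was called with any of the 4 libraries at 12 h left out for KRT16, CYP1A1, ARHGDIB and LEF1, whereas those of ADGRF4, L1CAM, CLEC7A, CEP126, PCDH11X and GRIK2 reached adjusted p-values of up to 0.135, 0.0752, 0.221, 0.120, 0.122 and 0.188 without 1 library. The calls of ADGRF4 and GRIK2 at 12 h were also lost without 1 library (adjusted p up to 0.101 and 0.254).

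From 12 h to 24 h, 7 genes differed (0.0288%), all with a smaller effect at 24 h. With only the libraries compared in the fit, edgeR called 0 genes, with 867 at an unadjusted p under 0.05, and DESeq2 on all BT474R libraries called 24. SPNS2, a transporter of sphingosine-1-phosphate, had the smallest p of all genes at 12 h, with 48.8 and 47.2 CPM in vehicle and 97.7 and 98.3 CPM in HRG (log2 fold change 1.03 ± 0.056, adjusted p = 3.82e-10), and its effect was 0.39 at 24 h (difference -0.64 ± 0.079, adjusted p = 0.00150). The effect on ITGB4 went from 0.88 to 0.25 (difference -0.63 ± 0.087, adjusted p = 0.00472), that on MYOF, a membrane repair protein, from 0.84 to 0.20 (difference -0.64 ± 0.10, adjusted p = 0.0142), that on LMO7, an actin-binding protein of adherens junctions, from 0.55 to 0.10 (difference -0.45 ± 0.067, adjusted p = 0.00638) and that on ACTB from 0.38 to -0.0061 (difference -0.39 ± 0.055, adjusted p = 0.00528). The other called genes were FLNA and ACTG1, of which ACTG1 was lower than vehicle at 24 h (-0.17 ± 0.041, adjusted p = 0.0259). Without HRG replicate 1 at 12 h, MYOF and LMO7 reached 0.161 and 0.0715 and were not called for this difference. Other DEGs at 12 h were also called at 24 h, when 2.78% of all genes were, such as ETV4 (1.65 at 24 h, adjusted p = 0.000174) and ESR1 (-0.65, adjusted p = 0.000748), for which no difference between times was called.

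**Figure D4:**
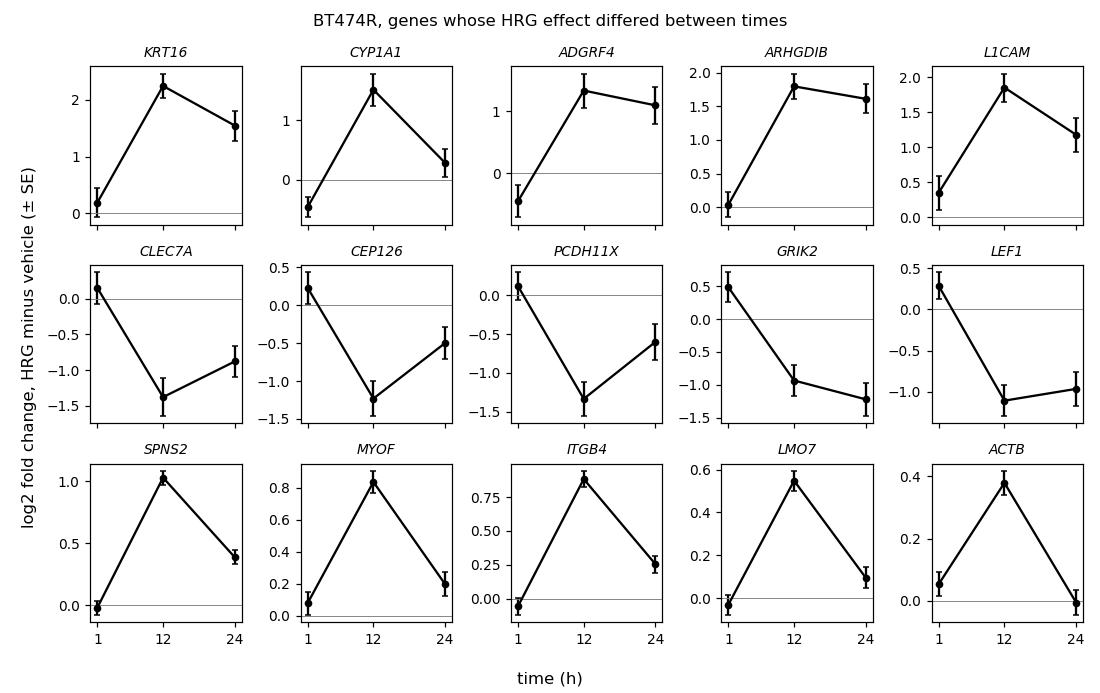
Log2 fold change of HRG over the vehicle of the same time (vertical axes, scaled per gene) against hours of treatment (horizontal axis, 1, 12 and 24 h) in BT474R for the 15 genes named for a difference between times. Points are the fitted effects and bars their standard errors, from 2 libraries per group. KRT16 has an effect of 0.19 at 1 h and 2.24 at 12 h, and ACTB has 0.38 at 12 h and -0.0061 at 24 h.

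Against EGF at the same time in the same line, HRG left 345 genes at another level (1.42%), 67 higher and 278 lower with HRG. The doses differed, 10 ng/mL for HRG and 50 ng/mL for EGF, so that ligand and dose cannot be told apart. Of the 5 DEGs with the largest gaps below EGF, 4 rose with either ligand, where EGF raised 6.85% of all genes tested. GDF15 was at 140.5 and 117 CPM with EGF against 31.1 and 49.1 CPM with HRG (difference -1.68 ± 0.29, adjusted p = 0.00250). LGALS9, the lectin galectin-9, was at 12.5 and 11.5 CPM with EGF, 4.04 and 4.29 CPM with HRG and 1.94 and 2.25 CPM in vehicle (difference -1.53 ± 0.15, adjusted p = 9.84e-07). KRT16 was at 17.0 and 15.5 CPM with EGF (difference -1.27 ± 0.16, adjusted p = 5.24e-05) and PADI1 at 16.6 and 12.99 CPM (difference -1.48 ± 0.27, adjusted p = 0.00310). The interferon response genes DTX3L and IRF1 also stood higher with EGF. DTX3L, a ubiquitin ligase induced by interferon, was at 44.5 and 42.4 CPM with EGF and 21.4 and 18.3 CPM with HRG (difference -1.13 ± 0.077, adjusted p = 7.56e-09), below the vehicle levels of 26.3 and 26.3 CPM. IRF1 was at 19.1 and 13.6 CPM with EGF, with a difference of -3.07 ± 0.23 on the log2 scale (adjusted p = 3.13e-08).

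Among the DEGs that HRG lowered, several were lower still with EGF. MYRIP, which links secretory granules to actin, was at 13.97 and 13.4 CPM in vehicle, 7.79 and 6.56 CPM with HRG and 3.33 and 3.52 CPM with EGF (difference 1.07 ± 0.14, adjusted p = 0.000139). ADCY2, an adenylyl cyclase, was at 10.2 and 8.76 CPM in vehicle, 5.36 and 4.26 CPM with HRG and 2.68 and 2.71 CPM with EGF (difference 0.83 ± 0.15, adjusted p = 0.00271). SOX2, a pluripotency factor, was at 39.1 and 31.3 CPM in vehicle, 18.3 and 18.3 CPM with HRG and 10.5 and 11.0 CPM with EGF (difference 0.76 ± 0.16, adjusted p = 0.0148). ABCC8, a subunit of ATP-sensitive potassium channels, had a difference of 0.79 ± 0.18 on the log2 scale (adjusted p = 0.0254). GATA3 was at 12.2 and 13.8 CPM with EGF and ERBB4 at 4.52 and 3.88 CPM, both below their levels with HRG, with adjusted p-values for HRG against EGF of 0.00803 and 0.0225. For ESR1, the difference of 0.31 ± 0.10 was not called (adjusted p = 0.226). TRNC, a mitochondrial transfer RNA gene, was at 70.5 and 109 CPM in vehicle, 119 and 129.9 CPM with HRG and 57.2 and 65.4 CPM with EGF (difference 1.03 ± 0.13, adjusted p = 4.75e-05). Without 1 HRG library, the gaps to EGF of GDF15, PADI1, ADCY2, SOX2 and ABCC8 reached adjusted p-values of up to 0.129, 0.123, 0.117, 0.127 and 0.263 and were not called, while those of KRT16, LGALS9, DTX3L, MYRIP and TRNC were called without either HRG library. No EGF library was left out. The rise of TRNC over vehicle was itself not called without at least 1 library (adjusted p up to 0.408), and the fall of ABCC8 was not called by DESeq2 or without any 1 of the 4 libraries (adjusted p up to 0.455).

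The response to HRG at 12 h was also set beside that of the parental line. In a fit of both lines, 5816 of 24641 genes (23.6%) were called for HRG at 12 h in BT474, and of the 1000 DEGs of BT474R 817 were called there as well, 810 in the same direction and 7 in the opposite, which is 81.7% of the DEGs of BT474R and 14% of those of BT474. The 1000 DEGs of BT474R came from the fit of that line alone, and in the fit of both lines 1020 genes rose and 586 fell in BT474R. The effect itself differed between the lines for 1003 genes (4.07%), with 287 higher in BT474R and 716 lower. ARHGDIB rose by 1.81 in BT474R and 0.49 in BT474 (difference 1.32 ± 0.18, adjusted p = 1.03e-05), on the log2 scale and from unlike levels. In BT474 it was at 49.0 and 47.1 CPM in vehicle and 68.4 and 66.9 CPM in HRG. In BT474R it was at 1.08 and 1.69 CPM in vehicle and 4.79 and 5.07 CPM in HRG. TENM4 rose by 1.96 in BT474R and 0.51 in BT474 on the log2 scale (difference 1.45 ± 0.40, adjusted p = 0.0307), also from unlike levels. It was at 6.04 and 5.23 CPM in BT474 vehicle and 7.42 and 8.65 CPM in BT474 with HRG. In BT474R it was at 0.388 and 0.529 CPM in vehicle and 1.79 and 1.84 CPM in HRG. PCDH20, a protocadherin, had effects of 1.10 in BT474R and -0.015 in BT474 (difference 1.12 ± 0.32, adjusted p = 0.0355). LEF1 fell in both lines and less in BT474R (-1.09 against -2.22, difference 1.13 ± 0.33, adjusted p = 0.0404). TRNC had values of opposite sign (0.48 ± 0.17 against -0.79 ± 0.18, difference 1.27 ± 0.25, adjusted p = 0.00159). The rise of TRNC in BT474R was not called in this fit of both lines, by DESeq2 or with only the libraries compared. The differences of TENM4, PCDH20 and LEF1 were not called with any of the 4 libraries left out, with adjusted p-values of up to 0.164, 0.104 and 0.171.

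Of the 5 named DEGs with a lower effect in BT474R, 4 rose more in BT474 on the log2 scale. AQP3 had an effect of 1.77 in BT474R and 3.79 in BT474 (difference -2.02 ± 0.30, adjusted p = 3.70e-05), with 1.31 and 1.48 CPM in BT474 vehicle and 19.9 and 18.8 CPM in BT474 with HRG. H19 had effects of 0.89 and 2.78 (difference -1.90 ± 0.31, adjusted p = 0.000124), from unlike levels. It was at 5.24 and 4.08 CPM in BT474 vehicle and 34.8 and 30.1 CPM in BT474 with HRG, against 2223 and 2771 CPM in BT474R vehicle. ALDH1A3 had effects of 0.75 and 2.59 (difference -1.84 ± 0.18, adjusted p = 2.66e-08). CAPN8, a stomach calpain, followed with 0.75 and 2.18 (difference -1.43 ± 0.23, adjusted p = 9.98e-05). CA2, carbonic anhydrase 2, fell in BT474R (-1.05) with a value of 0.42 in BT474 (difference -1.46 ± 0.35, adjusted p = 0.0117), at levels near 1 CPM, and its difference was not called without at least 1 library (adjusted p up to 0.1247). The fall of CA2 was itself not called by DESeq2 and, like the rise of CAPN8, was lost without 1 library (adjusted p up to 0.158 and 0.189). MYC rose less in BT474 (0.29, adjusted p of the difference = 0.00101) and GATA3 fell less (-0.42, adjusted p of the difference = 0.00716). For ESR1 (-0.83 in BT474) and DUSP6 (1.78), no difference between the lines was called, with adjusted p-values of 0.779 and 0.768.

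**Figure D5:**
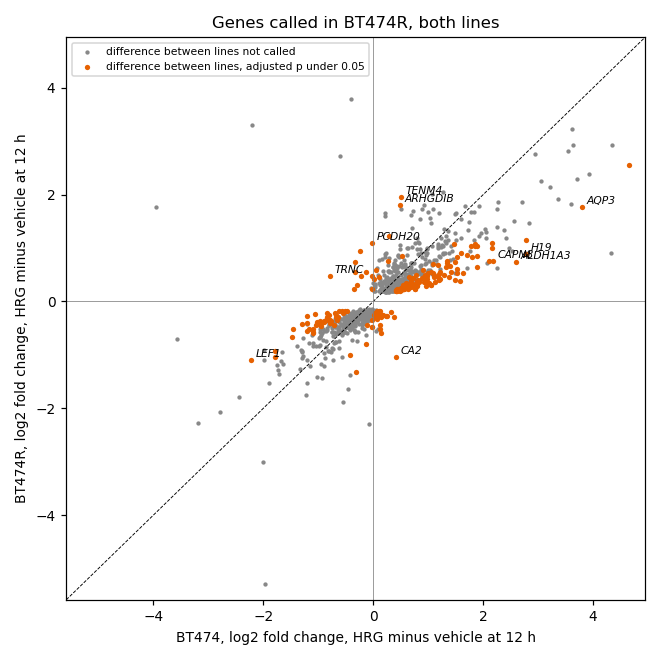
Log2 fold change of HRG over vehicle at 12 h in BT474 (horizontal axis) and BT474R (vertical axis), both from the fit of 40 libraries, for the 1000 DEGs of BT474R. Orange points differ between the lines at an adjusted p under 0.05 and the dashed line marks equal effects. AQP3 and ALDH1A3 lie to the right of that line, ARHGDIB and TENM4 above it. The genes were chosen for their change in BT474R.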

How the data were processed

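Messenger RNA from 40 samples was sequenced, and the authors deposited 1 table of raw read counts per gene, made by aligning trimmed paired reads to GRCh38.p13 with Rsubread and counting with featureCounts. Which annotation release was used, whether strand was counted and how reads with several alignments were handled are not given in the sources used here. Trimming with Trim Galore (0.6.6) is named in the submitters' processing notes. All 40 columns were mapped to samples, and 0 columns were left unused.

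Counts were analysed in R (4.3.3). A gene entered a fit if 50% or more of its libraries had at least 1 count for it. The 20 BT474R libraries were fitted together by group with edgeR (4.0.16), TMM scaling and the quasi-likelihood test, and p-values were adjusted by Benjamini-Hochberg over the whole table, with 0.05 as the threshold. The comparison of the lines used all 40 libraries. Differences between times and lines were tested as contrasts of effects. Errors are standard errors of the log2 fold change, and tests were two-sided. Scripts were tested on simulated data. Alternatives were DESeq2 (1.42.0), other scaling, other filters, fits of other sets of libraries, a replicate block, summed copy rows and leaving out each library, which leaves 1 sample in a group whose spread is then taken from the other groups.

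Genes were named by a rule. It took the 12 largest rises and falls at a mean of at least 1 CPM where HRG and vehicle libraries did not overlap. It also took the 5 most abundant DEGs per direction and up to 3 called members per direction of each list by smallest p. A fixed set of receptors and regulators was added, and up to 5 DEGs per direction with the largest difference in each further comparison. Further called members of lists and TP63 are given by symbol, chosen after their values were seen. Some genes that the rule names, and 1 of the lists, are not reported here. The gene lists and the comparison itself were chosen with earlier results of these data known. Protein-coding transcripts of the mitochondrial genome were not analysed here as a list. Duplicates give each group 2 values, which limits the precision of each level, and depth was 16794594 to 33387936 counts over the libraries.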

Additional observations from a re-analysis of the deposited data

Results flagged for a closer look

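The results below were picked out because the HRG effect at 12 h in BT474R differed, by a test of the difference itself, from the effect at another time or in the other line. All differences are on the log2 scale, and their causes were not tested.

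The effect at 12 h differed from that at 1 h for 241 genes. Among DEGs at 12 h the difference was 2.05 for KRT16, 1.99 for CYP1A1, 1.78 for ADGRF4, 1.77 for ARHGDIB and 1.501 for L1CAM toward a higher effect at 12 h. Toward a lower effect it was -1.53 for CLEC7A, -1.46 for CEP126, -1.45 for PCDH11X, -1.42 for GRIK2 and -1.40 for LEF1.

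The effect at 24 h differed from that at 12 h for 7 genes. It was smaller at 24 h by a difference of -0.64 for SPNS2, -0.64 for MYOF, -0.63 for ITGB4, -0.45 for LMO7 and -0.39 for ACTB. The replicates at 24 h differed more than those at 12 h, with a median chi-square of 3.20 for HRG at 24 h against 0.914 at 12 h, and the part of this spread in the low count was not tested.

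The effect in BT474R differed from that in BT474 for 1003 genes. It was higher in BT474R by 1.45 for TENM4, 1.32 for ARHGDIB, 1.27 for TRNC, 1.13 for LEF1 and 1.12 for PCDH20. It was lower in BT474R, with differences of -2.02 for AQP3, -1.90 for H19, -1.84 for ALDH1A3, -1.46 for CA2 and -1.43 for CAPN8.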

How the results depend on the processing

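No named DEG changed direction under any of the 13 alternatives, and 69 of the 125 named DEGs were called in every alternative that gave them a value. Of the other 56, 55 were lost when at least 1 of the 4 libraries was left out. DESeq2 gave no adjusted p for GSDMA, ACTG2, MAGEC1 and FAT4. The count of risen genes (579) was 1104 with no filter on low counts, 372 with only the libraries compared in the fit, 1020 with all 40 libraries in 1 fit and 1271 without the 24 h libraries, an alternative chosen after seeing the data, and it was 282 to 406 with 1 of the 4 libraries at 12 h left out, as in all such values here. The count of fallen genes (421) was 194 with only the libraries compared, 1141 without the 24 h libraries and 97 to 190 with 1 library left out.

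The 241 genes that differed between 12 h and 1 h became 558 with no filter, 694 with only the libraries compared, 568 in the fit of 40 libraries, 1000 without the 24 h libraries and 125 to 171 with 1 library left out. The 7 that differed between 24 h and 12 h became 24 with DESeq2, 105 with no filter, 0 with only the libraries compared (867 at an unadjusted p under 0.05 in edgeR), 32 in the fit of 40 libraries and 5 to 7 with 1 library left out. The 345 that differed between HRG and EGF became 628 with no filter, 818 without the 24 h libraries and 116 to 317 with 1 library left out. The 1003 that differed between the lines became 2066 with only the libraries compared and 366 to 693 with 1 library left out. The causes were not tested, beyond the fewer samples that a left-out library gives. Of the lists, the count of risen DNA replication genes (15) was 24 with no filter, 23 in the fit of 40 libraries and 26 without the 24 h libraries, that of mitosis genes (11) was 17, 20 and 21 in the same order and 3 with only the libraries compared, and that of actin genes (12) was 7 with only the libraries compared. Risen feedback genes (7) were 11 without the 24 h libraries, and the 2 fallen ones were 1 with DESeq2, its size factors, no filter or only the libraries compared. Fallen adhesion genes (0) were 1 with DESeq2 or the replicate block and 2 with no filter, in the fit of 40 libraries or without the 24 h libraries.

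Of the genes that were not called, NR1H3 changed sign, to 0.0040 with DESeq2, 0.0025 with its size factors, 0.0058 with filterByExpr, 0.019 with no filter, 5.1e-05 with only the libraries compared, 0.0069 with 40 libraries, 0.055 without HRG replicate 2 and 0.093 without vehicle replicate 2. Without HRG replicate 1 NR1H3 was at -0.048. ERBB2 went to 0.0016 with filterByExpr, 0.016 with no filter, 0.0042 with 40 libraries, 0.010 without HRG replicate 1, 0.023 without vehicle replicate 1 and 0.0040 without vehicle replicate 2, and was at -0.0099 without HRG replicate 2. EGFR went to -0.0045 without HRG replicate 2 and -0.050 without vehicle replicate 1, against 0.19 without vehicle replicate 2, and IRF1 to -0.18 without vehicle replicate 1 against 0.49 without vehicle replicate 2.

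The check did not show that replicate numbers pair the samples: the correlation of deviations between same-numbered HRG and vehicle libraries at 12 h was 0.0979, and 13 of 45 such correlations between groups were above 0.1, with a range from -0.235 to 0.42. With the replicate block, 632 genes rose and 476 fell at 12 h, 292, 8 and 364 genes differed from 1 h, between 24 h and 12 h and from EGF, and 1092 between the lines, and no named DEG was lost.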

Other observations

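Gene groups that were chosen after seeing the data, and so carry no test, held more DEGs than the 4.12% over all genes. Of 42 nuclear receptor genes tested, 8 fell and 3 rose (26.2%). Beside ESR1, PGR, ESRRG and NR1D2, the receptors that fell included the glucocorticoid receptor gene NR3C1 (log2 fold change -0.37) and the thyroid hormone receptor genes THRA (-0.21) and THRB (-0.31). The vitamin D receptor gene VDR (0.66), RARA (0.29) and NR0B2 (1.65), which encodes the corepressor SHP, rose.

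Of 24 genes for the breakdown of branched-chain amino acids, 6 fell and 18 were not called (25.0%), with a median log2 fold change of -0.20 over the list. They included DBT (-0.41), a subunit of the branched-chain ketoacid dehydrogenase, PPM1K (-0.70), the phosphatase that activates this enzyme, MCCC1 (-0.26), ACADSB (-0.45) and ALDH6A1 (-0.37). Of 43 peroxisome genes, 9 fell and 1 rose (23.3%), with a median of -0.13. Those that fell included catalase, CAT (-0.24), the enzymes of peroxisomal fatty acid breakdown HSD17B4 (-0.20), ECI2 (-0.48) and ACOX3 (-0.41), and PEX11A (-0.52), which acts in peroxisome division, whereas ACOX2 (1.38) rose.

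Of 16 genes for the GalNAc transferases that start mucin-type O-glycans, GALNT6 (0.33), GALNT10 (0.41), GALNT14 (0.52) and GALNT18 (0.38) rose and 12 were not called (25.0%), beside the rises of the mucin genes MUC2, MUC5AC and MUC6. The rise of MUC6 was not called by DESeq2. The calls of the genes in these groups that are not named elsewhere were not recomputed with a library left out.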
